A study of Mus musculus with 28 samples.

Results

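The changes that follow deletion of a gene in astrocytes were compared, gene by gene, between whole cerebral cortex and astrocyte ribosomes of mice at postnatal day 24 (P24). Members were all genes that could be tested in both assays, 20662 of the 53341 gene identifiers the tables share, and each has a bulk change, a ribosome-bound change and the difference between them. Whole cortex (bulk RNA-seq) was sequenced from 4 cKO and 4 Ctrl mice, and translating ribosome affinity purification (TRAP) gave an immunoprecipitated fraction (IP) from 3 cKO and 3 Ctrl mice, with 1 mouse for each library. Per the study's methods, cKO mice carry loxP-flanked alleles of the deleted gene and Cre under the murine GFAP promoter (mGFAP-Cre), and bulk Ctrl mice are sex-matched littermates with loxP/loxP or loxP/+ alleles that are described without the driver. TRAP mice carry in addition a Cre-dependent ribosomal protein tagged with green fluorescent protein (EGFP-Rpl10a), which an antibody to the tag pulls down. TRAP Ctrl mice therefore have to carry Cre. The study describes them as loxP/loxP or loxP/+ and does not name the driver for them, and the sample labels say only Ctrl. By the study's definitions, Cre with loxP/loxP is the cKO genotype and Cre with loxP/+ a conditional heterozygote. The genotype of the TRAP Ctrl mice is thus not settled, and it may differ from that of the bulk Ctrl mice. The strain was C57BL/6J, and no agent was given. Bulk and IP came from different mice. The cohort of mice, the genotype of the controls, the library preparation and the compartment therefore cannot be told apart. The exception is where the Input fraction (10% of each TRAP lysate, taken before the pull-down) gives a whole-tissue value. Input came from the TRAP mice themselves and was prepared as the IP was.

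Astrocytes take up glutamate, GABA and potassium released by neurons, store glycogen, and respond to injury by raising intermediate filament, calcium-binding and matrix genes in a state called reactive. Whole-tissue RNA sums all cell types, weighted by their number and by their RNA content, whereas TRAP reads messenger RNA on the ribosomes of the cells that express the tag and says nothing of how many such cells there are. In bulk samples, fewer cells of a type and less RNA per cell cannot be told apart.

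Library totals ran from 12603888 to 14575306 counts in bulk and from 23336491 to 26153084 counts in IP. The astrocyte label of the IP held: 20 of 20 astrocyte markers were higher in Ctrl IP than in Ctrl Input (median log2 difference 3.39), and 17 of 18 neuron markers (median -1.73), 17 of 18 microglia markers (median -1.63) and 11 of 16 oligodendrocyte markers (median -0.74) were lower. Of the libraries, 3 stood apart from their groups. Bulk cKO replicate 1 had the lowest value of the 4 cKO mice for many of the induced genes, and its summed reactive astrocyte markers came to 844 CPM against 1291 to 1628 CPM in the other cKO mice and 283 to 377 CPM in Ctrl (CPM, counts relative to library size, scaled by TMM, the trimmed mean of M values, within each assay). Input cKO replicate 1 had 14699 CPM of summed ribosomal protein genes against 6723 and 6805 CPM in the other cKO Inputs and 6404 to 6662 CPM in Ctrl, so Input changes are given without it unless stated. IP cKO replicate 2 differed from the other cKO IP libraries by a chi-square per gene of 35.3 and 34.0, against 20.6 between those and 10.5 to 17.5 among Ctrl IP libraries, and without it 2638 genes were called in IP and 1379 differences. Input gave 26 calls of 23827 genes by edgeR (0.109%; 22 higher, 0.0923%, and 4 lower, 0.0168%) and 962 at an unadjusted p under 0.05, and without that library 112 of 24540 (0.456%; 103 higher, 0.420%, and 9 lower, 0.0367%). CPM values are listed in the order of replicates 1 to 4 or 1 to 3, and levels are not compared between bulk and IP.

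Far more genes were called on astrocyte ribosomes than in whole cortex. Of 23863 genes tested in IP, 4782 passed an adjusted p of 0.05 (20.0%), 2772 of them higher in cKO (11.6%) and 2010 lower (8.42%). In bulk, 388 of 22494 genes passed (1.72%), 284 higher (1.26%) and 104 lower (0.462%). Precision favoured bulk: the median standard error of the log2 change over genes tested in both was 0.10 in bulk and 0.14 in IP. Among the genes tested in both, 386 were called in bulk (1.87%) and 4467 in IP (21.6%). Of the 386 bulk calls, 239 (61.9%) were also called in IP, which is 5.35% of the IP calls, and 236 of them moved in the same direction (61.1% of the bulk calls and 5.28% of the IP calls). Single libraries weighed on the bulk count, which was 952 without bulk cKO replicate 1, 216, 239 and 222 without cKO replicates 2, 3 and 4, and 235 and 226 without Ctrl replicates 1 and 2. The IP count was 2638 without IP cKO replicate 2, 3068 without IP Ctrl replicate 1 and 3186 without IP Ctrl replicate 3.

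The difference itself, IP change minus bulk change in 1 fit of the 14 libraries, passed an adjusted p of 0.05 for 2633 genes (12.7%), 1311 with the higher change in IP (6.34%) and 1322 with the lower (6.40%); without IP cKO replicate 2 the count was 1379. Sorting each bulk call by its IP call and by this difference placed 236 in a shared group, 3 in opposite directions and 38 in a group called in bulk whose IP change was not called and differed from the bulk change. Another 109 bulk calls were undecided, with neither an IP call nor a called difference, and 2 could not be tested in IP. Of the remaining IP calls, 2226 differed from the bulk change, 2002 were undecided and 315 could not be tested in bulk. As a description without a test, bulk and IP log2 changes had a Pearson r of 0.39 and a Spearman rho of 0.32 over all 20662 genes, 0.83 and 0.81 over the genes called in bulk, and 0.63 and 0.62 over those called in IP. These points share libraries within each assay, and genes are not independent replicates.

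**Figure D1:**
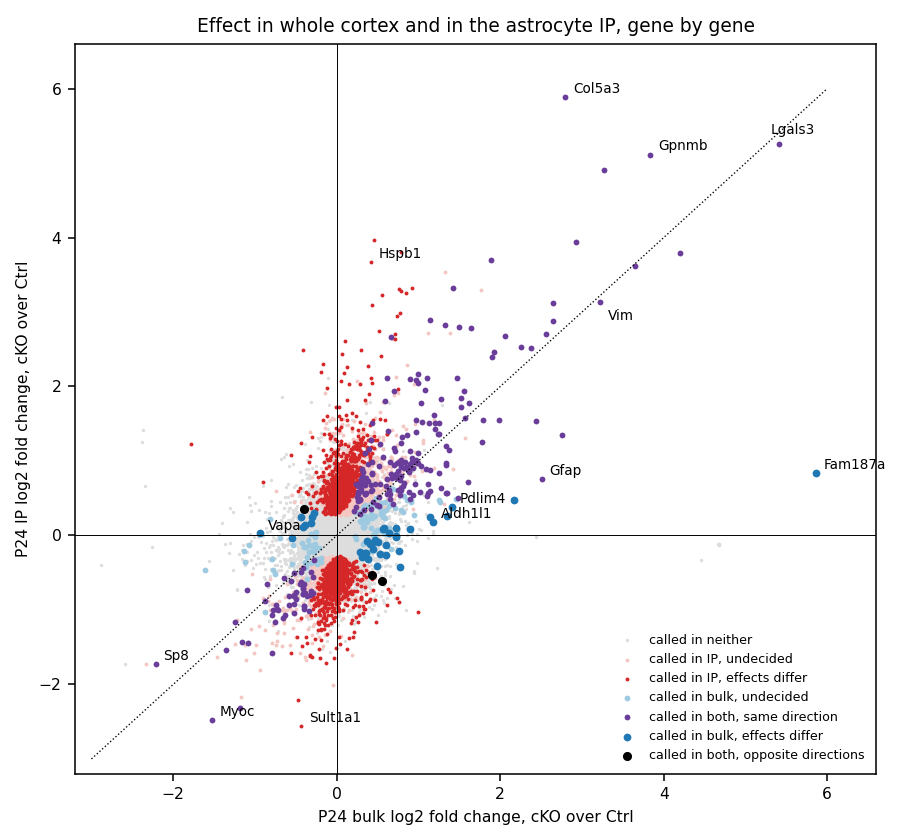
Log2 change, cKO against Ctrl, in P24 bulk cortex (horizontal axis) and in IP (vertical axis) for the genes tested in both, 1 point for each gene, colored by the group it falls in. Shared calls lie along the diagonal, the 2226 IP calls that differed spread along the vertical axis near 0 in bulk, and the 38 bulk calls that differed lie near 0 in IP.

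Most bulk changes of large size were also present on astrocyte ribosomes. Of 89 bulk calls with a log2 change over 1 in size, 76 were called in the same direction in IP, 6 differed and 7 were undecided. In the reverse direction, 94 of 509 IP calls over 1 in size were shared with bulk, 241 differed and 174 were undecided. The 236 shared genes comprised 181 that rose, with median log2 changes of 0.83 in bulk and 0.94 in IP, and 55 that fell, with medians of -0.53 and -0.85, against medians of 0.00 and -0.02 over all genes tested in both. In Ctrl mice 195 of the 234 shared genes with a value were called higher in IP than in Input, against 7506 of the 20551 genes with a value (36.5%; 37.7% were lower); Ctrl IP libraries enter both this ratio and the IP change. Without bulk cKO replicate 1, 468 genes were shared, among them 234 of the 236; the count was 145, 152 and 145 without bulk cKO replicates 2, 3 and 4 and 148 and 140 without bulk Ctrl replicates 1 and 2.

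Genes that rose in both were led by Lgals3, the glycan-binding protein galectin-3. Bulk values of Lgals3 were 2.56, 28.2, 26.5 and 19.8 CPM in the cKO mice and 0.441, 0.662, 0.225 and 0.437 CPM in the Ctrl mice. On astrocyte ribosomes Lgals3 stood at 45.9, 99.8 and 64.4 CPM in the cKO mice and 1.82, 2.33 and 1.31 CPM in the Ctrl mice. Groups did not overlap in either assay, and bulk cKO replicate 1 was the lowest cKO mouse. The log2 change of Lgals3 was 5.41 ± 0.76 (SE) in bulk (adjusted p = 0.00320) and 5.26 ± 0.31 (SE) in IP (adjusted p = 5.69e-06), and the difference of -0.16 ± 1.10 (SE) was not called (adjusted p = 0.946). Gpnmb encodes a glycoprotein of lysosomes and melanosomes. It measured 21.4, 62.5, 63.8 and 49 CPM in the cKO mice and 3.46, 2.72, 3.90 and 3.64 CPM in the Ctrl mice in bulk. In IP it measured 26.1, 59.1 and 49 CPM in the cKO mice and 1.21, 1.45 and 1.23 CPM in the Ctrl mice. Every cKO value of Gpnmb lay above every Ctrl value, with changes of 3.83 ± 0.34 (SE) and 5.10 ± 0.30 (SE). Vim, the intermediate filament vimentin, had bulk values of 81.5, 446, 331 and 259.6 CPM in the cKO mice and 34.7, 24.7, 27.3 and 33.2 CPM in the Ctrl mice. Its IP values were 558, 1747 and 981 CPM in the cKO mice and 125, 122 and 129 CPM in the Ctrl mice. Vim changes were nearly equal, 3.22 ± 0.39 (SE) in bulk and 3.13 ± 0.32 (SE) in IP, and their difference was -0.10 ± 0.55 (SE) (adjusted p = 0.936). S100a4 (calcium-binding), Syt15 (a synaptotagmin), Cdsn (corneodesmosin) and Col5a3 (a collagen chain) completed the protein-coding leaders, with bulk changes of 4.20, 3.27, 2.93 and 2.79 and IP changes of 3.79, 4.91, 3.94 and 5.89 in that order. Gm42674 also led the list but overlaps S100a4, and reads of the pair may not be separable.

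Nupr1, Eda2r and Emp1 were further shared increases. Nupr1, a small nuclear protein induced by stress, had bulk values of 12.4, 23.7, 21.6 and 27.8 CPM in the cKO mice and 3.31, 2.28, 4.80 and 3.28 CPM in the Ctrl mice. Its IP values were 244, 244 and 231 CPM in the cKO mice and 27.3, 39.9 and 30.9 CPM in the Ctrl mice. The Nupr1 groups were separate in both assays, with changes of 2.64 ± 0.26 (SE) in bulk (adjusted p = 0.000275) and 2.87 ± 0.14 (SE) in IP (adjusted p = 1.59e-06). Eda2r, a receptor of the tumor necrosis factor family and a p53 target, rose by 2.64 in bulk and 3.12 in IP from Ctrl levels below 1 CPM in bulk. Emp1, an epithelial membrane protein of the ischemia-type reactive list, stood in bulk at 1.82, 5.81, 4.59 and 8.51 CPM in the cKO mice and 1.62, 0.957, 1.05 and 1.31 CPM in the Ctrl mice, with log2 changes of 2.05 ± 0.41 (SE) in bulk (adjusted p = 0.0251) and 2.68 ± 0.26 (SE) in IP (adjusted p = 0.000134). Bulk Emp1 in cKO replicate 1 was close to the Ctrl mice, while the other cKO mice were well above them. Input of the TRAP mice moved the same way for 178 of the 181 shared increases, and P17 cortex, from 4 cKO and 4 Ctrl mice aged 17 days, for 165 of 173. Over all genes tested in both, the sign was that of P24 bulk for 61.6% in Input and 55.5% in P17.

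The promoters of Emp1 and Nupr1, 250 bases upstream of the transcription start in the coding direction (RefSeq, GRCm38.p6), are shown because both genes rose in both assays and carry letters of stress-linked motifs. Capitals mark TGANTCA (AP-1) in Emp1, 145 and 25 bases before the start, and TGATGNAA (the ATF4-C/EBP composite, here on the reverse strand) in Nupr1, 110 bases before the start.
Emp1, chr6:135362681-135362930, plus strand: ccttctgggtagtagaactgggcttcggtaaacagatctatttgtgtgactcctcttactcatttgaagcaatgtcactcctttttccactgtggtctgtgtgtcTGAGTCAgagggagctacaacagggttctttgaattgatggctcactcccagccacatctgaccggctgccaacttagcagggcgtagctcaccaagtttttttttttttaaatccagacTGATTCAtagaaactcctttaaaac
Nupr1, chr7:126625471-126625720, minus strand: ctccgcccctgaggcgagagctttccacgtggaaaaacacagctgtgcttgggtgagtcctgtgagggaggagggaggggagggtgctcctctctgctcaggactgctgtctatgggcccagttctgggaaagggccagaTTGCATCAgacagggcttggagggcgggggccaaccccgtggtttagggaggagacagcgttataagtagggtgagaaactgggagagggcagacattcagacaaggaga
Across promoters of this length, read on both strands, TGANTCA was found in 4.51% of the 15808 promoters of genes tested in both assays, and in 15 of the 163 promoters of shared increases (9.20%). TGATGNAA was found in 1.99% of all promoters and 2.45% of those of shared increases. The antioxidant element TGACNNNGC had shares of 11.6% and 12.9%, the STAT motif TTCNNNGAA 5.85% and 6.13%, and the cyclic AMP response element TGACGTCA, 2.37% and 0.613%. TGACGTCA and TGACNNNGC begin with the same 4 letters. The motifs were chosen after gene values were known, a match is only a match of letters, and these shares carry no test.

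Genes that fell in both were mostly enriched in the astrocyte fraction: 47 of the 55 were higher in Ctrl IP than in Ctrl Input, against 36.5% of all genes, with Ctrl IP libraries in both the ratio and the IP fall. Myoc, the secreted protein myocilin, measured 4.52, 4.77, 5.49 and 3.72 CPM in the cKO mice and 13.2, 14.1, 12.6 and 13.4 CPM in the Ctrl mice in bulk. Its IP values were 5.83, 5.26 and 7.79 CPM in the cKO mice and 31.5, 38 and 35.9 CPM in the Ctrl mice. All Myoc values in cKO lay below all Ctrl values. The change was -1.52 ± 0.11 (SE) in bulk (adjusted p = 4.85e-05) and -2.48 ± 0.15 (SE) in IP (adjusted p = 7.96e-06), and the larger fall in IP was called (-0.96 ± 0.19 (SE), adjusted p = 0.00511). Myocos, on the opposite strand and overlapping Myoc, followed it and may share its reads. Slc6a11, the astrocyte GABA transporter GAT-3, stood in bulk at 93.2, 78.6, 88.3 and 85.5 CPM in the cKO mice and 176, 124, 115 and 176 CPM in the Ctrl mice. In IP it stood at 84.1, 90.7 and 144 CPM in the cKO mice and 175, 220.2 and 246 CPM in the Ctrl mice. Slc6a11 groups did not overlap, and the changes were -0.78 ± 0.13 (SE) (adjusted p = 0.00917) and -1.01 ± 0.19 (SE) (adjusted p = 0.00481). Pygm, the muscle form of glycogen phosphorylase, gave 20.0, 15.5, 19.8 and 18.2 CPM in the cKO mice and 38.8, 34.4, 31.4 and 31.3 CPM in the Ctrl mice in bulk. On ribosomes Pygm gave 42.1, 40.3 and 56.1 CPM in the cKO mice and 76.6, 70.2 and 109 CPM in the Ctrl mice. Its fall was the same size in both, -0.88 in bulk and -0.88 in IP. Sp8 (a zinc-finger transcription factor), Cyp4f15 (a cytochrome P450) and Kirrel2 (an adhesion protein) also led the shared decreases, with bulk changes of -2.21, -1.35 and -1.25 and IP changes of -1.72, -1.54 and -1.17.

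Slc1a2, Slc1a3 and Slc7a10, which carry glutamate and other amino acids, fell in both assays as well. Slc1a2 (GLT-1), the main glutamate transporter of the forebrain, had changes of -0.41 ± 0.06 (SE) in bulk (adjusted p = 0.00658) and -0.71 ± 0.16 (SE) in IP (adjusted p = 0.00925). Its bulk values were 2195, 1942, 1916 and 1988 CPM in the cKO mice and 2428, 3030.1, 2659 and 2543 CPM in the Ctrl mice. Slc1a3 (GLAST), the other astrocyte glutamate transporter, changed by -0.40 and -0.95, and Slc7a10, a carrier of small neutral amino acids, by -0.75 and -0.94 (log2, bulk and IP). The Input did not show these falls: its log2 changes were 0.17 ± 0.10 (SE) for Slc1a2, 0.25 ± 0.12 (SE) for Slc1a3, 0.24 ± 0.20 (SE) for Slc7a10 and 0.02 ± 0.12 (SE) for Slc6a11, none of them called. Among the 55 shared decreases the Input sign matched bulk in 35, near the 61.6% of all genes, and P17 cortex had the sign of P24 bulk for 50, against 55.5% of all genes.

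**Figure D2:**
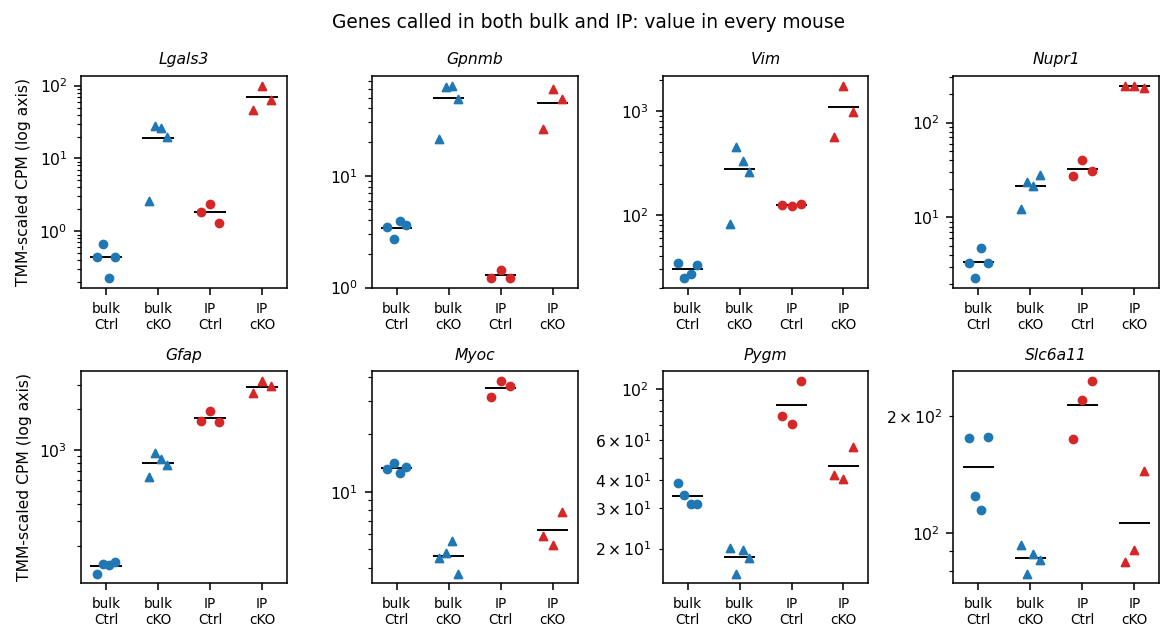
TMM-scaled CPM of 8 shared genes in every mouse (log axis), cKO and Ctrl, in P24 bulk and in IP, 1 point for each mouse. Lgals3, Gpnmb, Vim, Nupr1 and Gfap were higher in all cKO mice, Myoc, Pygm and Slc6a11 lower in all, with no overlap between groups in either assay.

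Where both assays called a gene in 1 direction, the IP change was usually the larger: it exceeded the bulk change in size in 174 of the 236 genes (126 of 181 increases and 48 of 55 decreases). The difference was called for 48 of them, and in 44 of these the IP change was the larger. Over all genes tested in both, the IP change was the larger in 15534 of 20662. Among all 2633 called differences it was the larger in 2530. The larger IP change was therefore not particular to the shared genes. Col5a3 had bulk values of 4.58, 16.5, 17.2 and 24.4 CPM in the cKO mice and 2.13, 2.06, 2.48 and 2.33 CPM in the Ctrl mice. In IP it had 33, 20.8 and 31.3 CPM in the cKO mice and 0.757, 0.42 and 0.238 CPM in the Ctrl mice. Its change was 2.79 ± 0.42 (SE) in bulk and 5.89 ± 0.30 (SE) in IP, a difference of 3.08 ± 0.70 (SE) (adjusted p = 0.0109). Cav1, the coat protein of caveolae, differed by 1.89 ± 0.41 (SE) (adjusted p = 0.00801), Tagln2, an actin-binding protein, by 1.49 ± 0.34 (SE) (adjusted p = 0.0109), and Ifitm3, an interferon-induced membrane protein, by 1.30 ± 0.36 (SE) (adjusted p = 0.0257), all with the larger rise in IP. In Ctrl mice Cav1 and Tagln2 were 1.12 and 1.20 higher in IP than in Input on the log2 scale, against 3.29 for Vim, 3.55 for Lgals3 and 3.27 for Nupr1, whose changes were nearly equal in the 2 assays. Shared increases that were over 4-fold higher in Ctrl IP than in Input (85 genes) had median log2 changes of 0.93 in bulk and 0.91 in IP. The medians were 0.62 and 0.95 for the 78 genes that were higher by up to 4-fold, and 0.63 and 0.91 for the 16 that were lower in IP than in Input. Ctrl IP libraries enter both this ratio and the IP change, so these values are a description.

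Gfap, the glial intermediate filament and the most used marker of reactive astrocytes, went the other way. Bulk Gfap was 632, 954, 865 and 778 CPM in the cKO mice and 124, 148, 144 and 152 CPM in the Ctrl mice. IP Gfap was 2589, 3184 and 2943 CPM in the cKO mice and 1622, 1921 and 1596 CPM in the Ctrl mice. Both assays separated the groups, with a change of 2.51 ± 0.11 (SE) in bulk (adjusted p = 2.18e-07) and 0.76 ± 0.11 (SE) in IP (adjusted p = 0.00140), and the difference, IP minus bulk, was -1.75 ± 0.17 (SE) (adjusted p = 4.28e-05). Input of the TRAP mice gave 1.67 ± 0.16 (SE) (adjusted p = 0.00349), or 1.53 with cKO replicate 1, and P17 cortex 1.03 ± 0.08 (SE) (adjusted p = 8.57e-05). The driver uses the Gfap promoter, the bulk Ctrl mice are described without it and the TRAP Ctrl mice have to carry it, so driver and knockout cannot be told apart in the bulk value.

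The 30 genes that rose in bulk but whose IP change was not called and differed from the bulk change were mostly enriched in the astrocyte fraction. In Ctrl mice 28 of the 30 were higher in IP than in Input (36.5% of all genes), with a median log2 ratio of 2.77, and their median change was 0.59 in bulk and -0.08 in IP. Both this ratio and the IP change that sorted these genes use the Ctrl IP libraries, so the count is a description. The Input change was positive for 29 of 30 (median 0.66) and the P17 change for 25 of 30, against signs as in bulk for 61.6% and 55.5% of all genes. Aldh1l1, the folate enzyme 10-formyltetrahydrofolate dehydrogenase and a standard astrocyte marker, measured 88.9, 149, 125 and 107 CPM in the cKO mice and 55.2, 51.3, 54.7 and 45.6 CPM in the Ctrl mice in bulk. In IP it measured 211, 339.8 and 378 CPM in the cKO mice and 264, 228 and 326 CPM in the Ctrl mice. Bulk groups were fully separate, whereas IP groups overlapped. The change was 1.18 ± 0.13 (SE) in bulk (adjusted p = 0.000617), 0.18 ± 0.20 (SE) in IP (adjusted p = 0.561) and 0.98 ± 0.13 (SE) in Input (adjusted p = 0.0130), and the difference, IP minus bulk, was -1.01 ± 0.26 (SE) (adjusted p = 0.0177). Sox9, a transcription factor of the astrocyte lineage, had bulk values of 22.9, 30.6, 24.8 and 29 CPM in the cKO mice and 21.2, 18.8, 18.6 and 17.6 CPM in the Ctrl mice. Its IP values were 102, 103 and 147 CPM in the cKO mice and 140.1, 144 and 184 CPM in the Ctrl mice. Sox9 was higher in all bulk cKO mice, while in IP cKO replicate 3 lay within the Ctrl range and the other cKO mice below it. Changes of Sox9 were 0.49 ± 0.09 (SE) (adjusted p = 0.0225) and -0.41 ± 0.16 (SE) (adjusted p = 0.0844), with a difference of -0.91 ± 0.19 (SE) (adjusted p = 0.00673).

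Like Aldh1l1 and Sox9, the genes Kcnj16, Hepacam, Slc14a1 and Sox2 were called higher in bulk and not called in IP, with a called difference. Kcnj16, an inwardly rectifying potassium channel subunit, stood at 17.1, 28, 28 and 29.2 CPM in the cKO mice and 14.2, 12.4, 11.8 and 16.4 CPM in the Ctrl mice in bulk and at 48.9, 57.6 and 57.4 CPM in the cKO mice and 41.5, 64.3 and 48.9 CPM in the Ctrl mice in IP, and its changes were 0.90 ± 0.16 (SE) (adjusted p = 0.0135) and 0.08 ± 0.15 (SE) (adjusted p = 0.74). Hepacam, an adhesion protein of astrocyte junctions, changed by 0.45 ± 0.06 (SE) in bulk and -0.18 ± 0.11 (SE) in IP, with a called difference (-0.64 ± 0.12 (SE), adjusted p = 0.00504). Slc14a1, a urea transporter, changed by 0.72 ± 0.12 (SE) and -0.01 ± 0.16 (SE) (adjusted p = 0.0315 for the difference), and Sox2, a stem cell and astrocyte transcription factor, by 0.50 ± 0.11 (SE) and -0.09 ± 0.14 (SE) (adjusted p = 0.0442). Input changes were 1.08 for Kcnj16, 0.61 for Hepacam, 1.07 for Slc14a1 and 0.59 for Sox2, and among these Kcnj16 and Hepacam were called (adjusted p = 0.0347 and adjusted p = 0.0491). Ppp1r3c, which brings a phosphatase to glycogen, rose in bulk by 0.76 ± 0.10 (SE) and had -0.21 ± 0.10 (SE) in IP (adjusted p = 0.00120 for the difference). Pdlim4, an actin-associated protein, gave 1.41 ± 0.17 (SE) and 0.39 ± 0.13 (SE) (adjusted p = 0.00961), and complement component C4b gave 0.78 ± 0.15 (SE) and -0.42 ± 0.25 (SE) (adjusted p = 0.0189). Summed over the astrocyte markers, bulk cKO libraries held 7112 to 7379 CPM against 6527 to 7230 CPM in Ctrl, Input cKO libraries 2662, 3435 and 3080 CPM against 1740, 2141 and 1961 CPM, and IP cKO libraries 15761 to 22368 CPM against 16762 to 22412 CPM. Ranges overlapped in bulk and IP and not in Input, and the part of cell number in these results was not tested.

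Of the 3 genes called in opposite directions, 2 rose in bulk and fell in IP. Arhgef26, a guanine nucleotide exchange factor, measured 29.4, 37.1, 29.8 and 32.8 CPM in the cKO mice and 23.3, 25.3, 24.2 and 23 CPM in the Ctrl mice in bulk. Its IP values were 110.3, 108 and 131 CPM in the cKO mice and 163, 168 and 171 CPM in the Ctrl mice. The groups were separate in both, with every cKO mouse higher in bulk and lower in IP, and the changes were 0.43 ± 0.08 (SE) (adjusted p = 0.0134) and -0.52 ± 0.10 (SE) (adjusted p = 0.00506). Trim56, a ubiquitin ligase, changed by 0.55 ± 0.12 (SE) in bulk (adjusted p = 0.0381) and -0.61 ± 0.16 (SE) in IP (adjusted p = 0.0244). The third was Rab31, which is described with Vapa. This count depended on the libraries used: it was 8 without bulk cKO replicate 1 or IP cKO replicate 3, and 1 without bulk cKO replicate 4, IP Ctrl replicate 3 or IP cKO replicate 2.

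**Figure D3:**
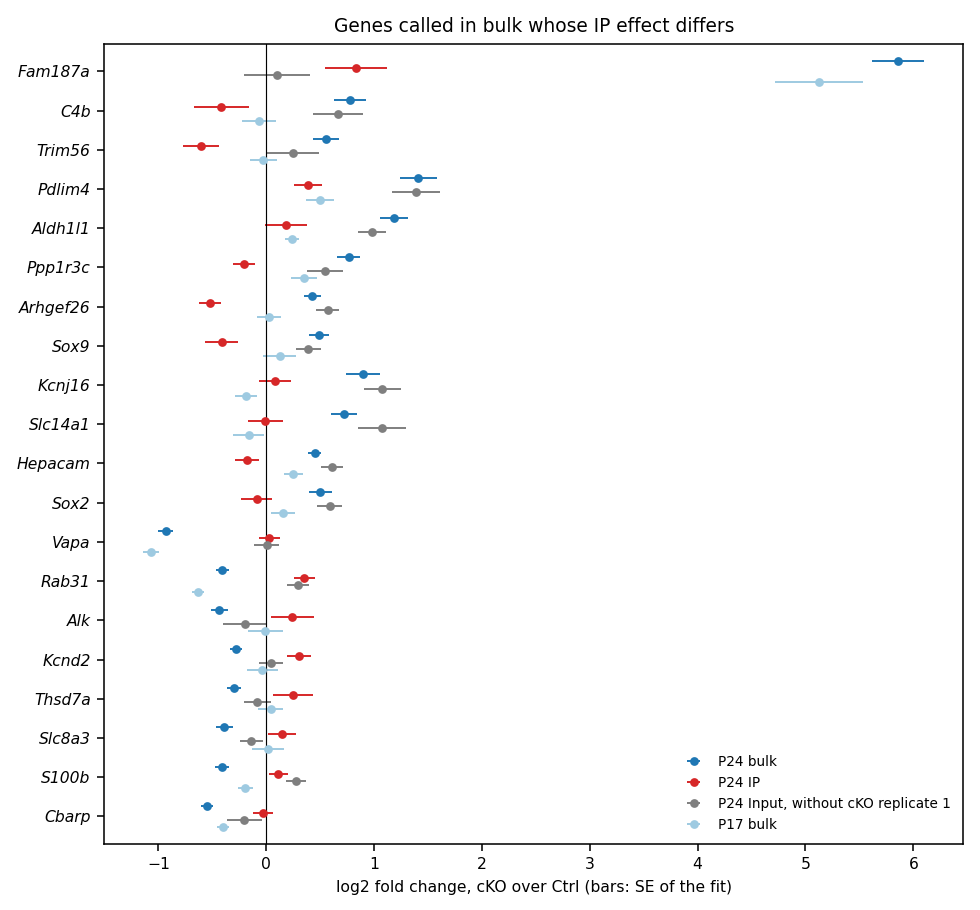
Log2 change (cKO against Ctrl, bars are SE) in P24 bulk, IP, Input without cKO replicate 1, and P17 bulk for genes called in bulk whose IP change differed. For Aldh1l1, Kcnj16, Hepacam, Slc14a1 and Sox2 the Input points lie on the bulk side of 0, for example 0.98 for Aldh1l1. For S100b, lower in bulk, the Input point lies on the other side of 0. For Fam187a and Vapa the P17 points join P24 bulk and the Input points lie near 0.

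Fam187a, Vapa and Rab31 changed in bulk at both ages and were not called in the Input of the TRAP mice. Fam187a lies on chromosome 11 at 102885169-102886731 (mm10, plus strand), next to Gfap at 102887336-102900912 on the minus strand, and both lie within the noncoding gene Gm26668 (102863337-103075903). Its summed bulk counts were 446 in cKO and 7 in Ctrl, with 99 to 124 in each cKO mouse and 1 to 3 in each Ctrl mouse, a ratio of 62.6 (95% exact interval 30.1 to 157, counting error only). IP values of Fam187a were 3.28, 2.63 and 2.94 CPM in the cKO mice and 1.63, 2.37 and 0.95 CPM in the Ctrl mice, which did not overlap but lay close together. The IP change was 0.83 ± 0.29 (SE) (adjusted p = 0.0619), the Input change 0.10 ± 0.31 (SE) (adjusted p = 1.00), and P17 bulk, whose groups have the genotypes of P24 bulk, was called (adjusted p = 8.57e-05). Vapa, an endoplasmic reticulum contact protein (chromosome 17, 65578327-65613555, minus strand), measured 31.7, 33.3, 35.4 and 37.5 CPM in the cKO mice and 63.5, 70.3, 61.8 and 67.7 CPM in the Ctrl mice in bulk. In IP it measured 90.2, 96.1 and 98 CPM in the cKO mice and 101, 94.2 and 84.3 CPM in the Ctrl mice. Vapa was lower in all bulk cKO mice, at -0.93 ± 0.07 (SE) (adjusted p = 3.30e-05) and at -1.07 ± 0.07 (SE) in P17 (adjusted p = 2.72e-05), and was at 0.03 ± 0.10 (SE) in IP and 0.00 ± 0.12 (SE) in Input. Rab31, a vesicle GTPase gene on the same chromosome at 65651729-65772752 (minus strand), changed by -0.41 ± 0.06 (SE) in bulk (adjusted p = 0.00318), -0.64 ± 0.06 (SE) in P17 (adjusted p = 0.000183) and 0.35 ± 0.10 (SE) in IP (adjusted p = 0.0270). For these genes presence of the Cre driver, loss of the floxed gene and the cohort of mice cannot be told apart.

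Genes that fell in bulk and whose IP change was not called and differed lay mostly low in the IP: 6 of these 8 genes, Vapa included, were lower in Ctrl IP than in Ctrl Input (37.7% of all genes), with a median log2 ratio of -1.31, and their median change was -0.40 in bulk and 0.16 in IP. Here too the ratio and the IP change that sorted the genes share the Ctrl IP libraries, so the count is a description. Cbarp, which regulates calcium channels, had bulk values of 231, 224, 208 and 222 CPM in the cKO mice and 315, 314, 352 and 311 CPM in the Ctrl mice. Its IP values were 64, 64.4 and 71.7 CPM in the cKO mice and 71.6, 65.9 and 66.8 CPM in the Ctrl mice. The bulk groups were separate and the IP groups overlapped, with changes of -0.55 ± 0.05 (SE) (adjusted p = 0.000324) and -0.03 ± 0.09 (SE) (adjusted p = 0.866). Kcnd2, a potassium channel of dendrites, changed by -0.28 ± 0.05 (SE) and 0.30 ± 0.11 (SE), Slc8a3, a sodium-calcium exchanger, by -0.39 ± 0.08 (SE) and 0.15 ± 0.13 (SE), Alk, a receptor tyrosine kinase, by -0.44 ± 0.08 (SE) and 0.24 ± 0.20 (SE), and Thsd7a by -0.30 ± 0.06 (SE) and 0.25 ± 0.19 (SE) in bulk and IP. In Ctrl mice the log2 ratio of IP to Input was -1.77 for Cbarp, -0.42 for Kcnd2, -1.30 for Slc8a3, -1.32 for Alk and -1.89 for Thsd7a. S100b, a calcium-binding astrocyte marker, was the exception, with a log2 ratio of 3.31. S100b stood in bulk at 36.4, 30.3, 36.1 and 33.4 CPM in the cKO mice and 45.7, 45, 42.9 and 47.1 CPM in the Ctrl mice, and it changed by -0.41 ± 0.06 (SE) in bulk (adjusted p = 0.00658) and 0.11 ± 0.09 (SE) in IP (adjusted p = 0.419). Input S100b changed by 0.28 ± 0.09 (SE) (adjusted p = 0.616). The bulk-differing group numbered 108 without bulk cKO replicate 1, and 25, 25 and 24 without bulk cKO replicates 2, 3 and 4, and 24 and 22 without bulk Ctrl replicates 1 and 2.

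For 109 bulk calls the data did not decide between a shared and a differing change. Of these, 98 had the same sign in IP, the IP change had an unadjusted p under 0.05 in 37 and the difference in 33. Aqp4, the water channel of astrocyte endfeet, measured 124, 238, 220.3 and 171 CPM in the cKO mice and 71.4, 83.1, 76.8 and 86.1 CPM in the Ctrl mice in bulk. In IP it measured 473, 499 and 516 CPM in the cKO mice and 285, 482 and 302 CPM in the Ctrl mice. Its bulk groups were separate, its IP groups overlapped through Ctrl replicate 2, and the changes were 1.25 ± 0.16 (SE) (adjusted p = 0.00182) and 0.48 ± 0.17 (SE) (adjusted p = 0.0737), with a difference of -0.78 ± 0.26 (SE) (adjusted p = 0.0594). Mlc1, a membrane protein of endfeet, changed by 0.52 ± 0.06 (SE) in bulk (adjusted p = 0.000659) and 0.08 ± 0.19 (SE) in IP (adjusted p = 0.815), and the difference was -0.45 ± 0.20 (SE) (adjusted p = 0.152). Input rose for both, by 1.57 ± 0.16 (SE) for Aqp4 (adjusted p = 0.00349) and 1.04 ± 0.17 (SE) for Mlc1 (adjusted p = 0.0451). Among the 39 undecided decreases, 27 were lower in Ctrl IP than in Input, against the same 37.7%, with Ctrl IP libraries in both the ratio and the IP change. The 2 bulk calls that could not be tested in IP were Cd244a, an immune cell receptor with 80 counts in cKO and 31 in Ctrl, and Col24a1, a collagen chain at 5.80, 3.74, 4.59 and 2.72 CPM in the cKO mice and 7.50, 7.36, 7.28 and 7.36 CPM in the Ctrl mice. IP levels of Col24a1 did not reach 0.4 CPM in any mouse.

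Changes called in IP that differed from bulk were numerous in both directions: 1179 rose, with median log2 changes of 0.66 in IP, 0.06 in bulk and 0.07 in Input, and 1047 fell, with medians of -0.53, -0.02 and -0.08. With Input cKO replicate 1 the Input medians were 0.42 and -0.13. Without IP cKO replicate 2 the 2226 genes became 1050, without IP Ctrl replicate 3 they became 1483, and without bulk cKO replicate 1 1670 of the 2226 stayed in the group.

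Hspb1, Cdkn1a and Cd44 were among the increases seen in IP that differed from bulk. Hspb1, the small heat shock protein of reactive astrocytes, had IP values of 8.55, 21.3 and 12.7 CPM in the cKO mice and 1.36, 0.65 and 1.31 CPM in the Ctrl mice. Its bulk values were 2.97, 4.54, 4.03 and 3.86 CPM in the cKO mice and 3.24, 2.65, 2.55 and 2.99 CPM in the Ctrl mice. IP groups were far apart, bulk groups overlapped, and the change was 3.67 ± 0.36 (SE) in IP (adjusted p = 0.000141) and 0.42 ± 0.16 (SE) in bulk (adjusted p = 0.29). Gm9817 gave 7.86, 20.8 and 12.9 CPM in the cKO mice and 1.02, 0.879 and 1.07 CPM in the Ctrl mice in IP, in the order and near the size of Hspb1, and whether the pair shares reads was not tested. Cdkn1a, the p53-induced cell cycle inhibitor p21, measured 131, 136 and 128 CPM in the cKO mice and 30.2, 31.5 and 29.5 CPM in the Ctrl mice in IP. In bulk it measured 18.5, 22, 21.9 and 29.8 CPM in the cKO mice and 16.8, 15.2, 15.8 and 21.1 CPM in the Ctrl mice. The IP groups were tight and separate, and the bulk groups overlapped. Cdkn1a changed by 2.11 ± 0.09 (SE) in IP (adjusted p = 1.01e-06) and 0.42 ± 0.14 (SE) in bulk (adjusted p = 0.202), a difference of 1.68 ± 0.18 (SE) (adjusted p = 8.33e-05). Cd44, the hyaluronan receptor, changed by 1.82 ± 0.32 (SE) in IP (adjusted p = 0.00332) and 0.13 ± 0.23 (SE) in bulk (adjusted p = 0.876). Hpgd, which degrades prostaglandins, changed by 2.43 ± 0.16 (SE) and 0.06 ± 0.14 (SE) in IP and bulk, with the difference called (adjusted p = 1.45e-05). Anxa3 (an annexin), Tnfrsf12a (the receptor of TWEAK), Gldn (gliomedin), Cela1 (an elastase) and Ecm1 (a matrix protein) had IP changes of 3.10, 3.33, 3.26, 2.99 and 3.31 and bulk changes of 0.43, 0.92, 0.84, 0.78 and 0.77. In Ctrl mice Hspb1, Anxa3, Gldn, Cela1 and Ecm1 were lower in IP than in Input, by log2 ratios of -0.71, -0.88, -1.36, -0.45 and -2.12, of which those of Anxa3, Gldn and Ecm1 were called. Most IP-differing increases went the other way. Of 1170 with a value, 816 (69.7%) were called higher in Ctrl IP and 13.4% lower, against 36.5% and 37.7% of all genes. Ctrl IP libraries enter both this ratio and the IP change. Fibroblast markers summed in IP to 130, 204 and 197 CPM in cKO and 67.6 to 90.6 CPM in Ctrl, of which Igfbp2, a shared increase, made up 108, 179 and 172 CPM in the cKO mice and 46.4, 68.2 and 45.8 CPM in the Ctrl mice. Of 12 fibroblast markers tested 1 rose and 1 fell, and of 17 microglia markers 3 rose, beside 11.6% of all genes that rose in IP and 8.42% that fell. Microglia markers summed to 153, 285 and 178 CPM in cKO and 137 to 163 CPM in Ctrl, and their part in the result was not tested.

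The promoter of Ecm1 is shown because it holds both motifs within 250 bases and the gene rose in IP. Capitals mark TGANTCA 64 bases before the start and TGATGNAA, on the reverse strand, 146 bases before it.
Ecm1, chr3:95739570-95739819, minus strand: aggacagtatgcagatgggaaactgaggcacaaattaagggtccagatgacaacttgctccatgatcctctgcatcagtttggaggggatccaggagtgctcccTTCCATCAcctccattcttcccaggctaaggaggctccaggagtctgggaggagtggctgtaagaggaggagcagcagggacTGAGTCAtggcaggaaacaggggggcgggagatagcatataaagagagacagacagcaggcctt
TGANTCA was found in 6.39% of the promoters of IP-differing increases and 4.90% of those of IP-differing decreases. TGATGNAA was found in 1.90% of the first.

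Sult1a1, Lmcd1 and Top2a were among the decreases seen in IP that differed from bulk. Sult1a1, a sulfotransferase, measured 13.6, 9.15 and 9.54 CPM in the cKO mice and 74.9, 36.5 and 78.4 CPM in the Ctrl mice in IP. In bulk it measured 7.35, 3.58, 5.01 and 6.43 CPM in the cKO mice and 9.93, 6.99, 7.43 and 6.20 CPM in the Ctrl mice. All IP cKO values were below all Ctrl values, and the bulk values overlapped. Sult1a1 changed by -2.55 ± 0.27 (SE) in IP (adjusted p = 0.000203) and -0.44 ± 0.21 (SE) in bulk (adjusted p = 0.392), and the IP ratio to Input in Ctrl was 3.18 on the log2 scale. Lmcd1, a LIM-domain protein, stood at 8.98, 9.20 and 8.11 CPM in the cKO mice and 25.7, 30.4 and 25.1 CPM in the Ctrl mice in IP, and it changed by -1.63 ± 0.12 (SE) (adjusted p = 2.72e-05) and by -0.30 ± 0.14 (SE) in bulk (adjusted p = 0.388). Phyhd1, a dioxygenase-domain protein, changed by -1.71 ± 0.22 (SE) in IP and -0.13 ± 0.11 (SE) in bulk. Top2a, the topoisomerase of dividing cells, measured 10.3, 7.21 and 7.39 CPM in the cKO mice and 14, 15.4 and 14.6 CPM in the Ctrl mice in IP. In bulk it measured 2.56, 2.47, 2.64 and 1.86 CPM in the cKO mice and 1.99, 2.36, 1.80 and 1.60 CPM in the Ctrl mice. The Top2a groups were separate in IP only, and the changes were -0.82 ± 0.15 (SE) (adjusted p = 0.00409) and 0.30 ± 0.19 (SE) (adjusted p = 0.561). Aspm and Bub1b, of the mitotic spindle, changed by -1.03 and -1.04 in IP and 0.99 and 0.32 in bulk, and the histone gene Hist1h2ah by -1.16 and 0.26. Stab2 (a scavenger receptor), Fgd2 (an exchange factor for Cdc42) and Gm19935 were also named by the rule, with IP changes of -1.37, -1.18 and -0.90 and bulk changes of 0.16, 0.17 and 0.77.

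**Figure D4:**
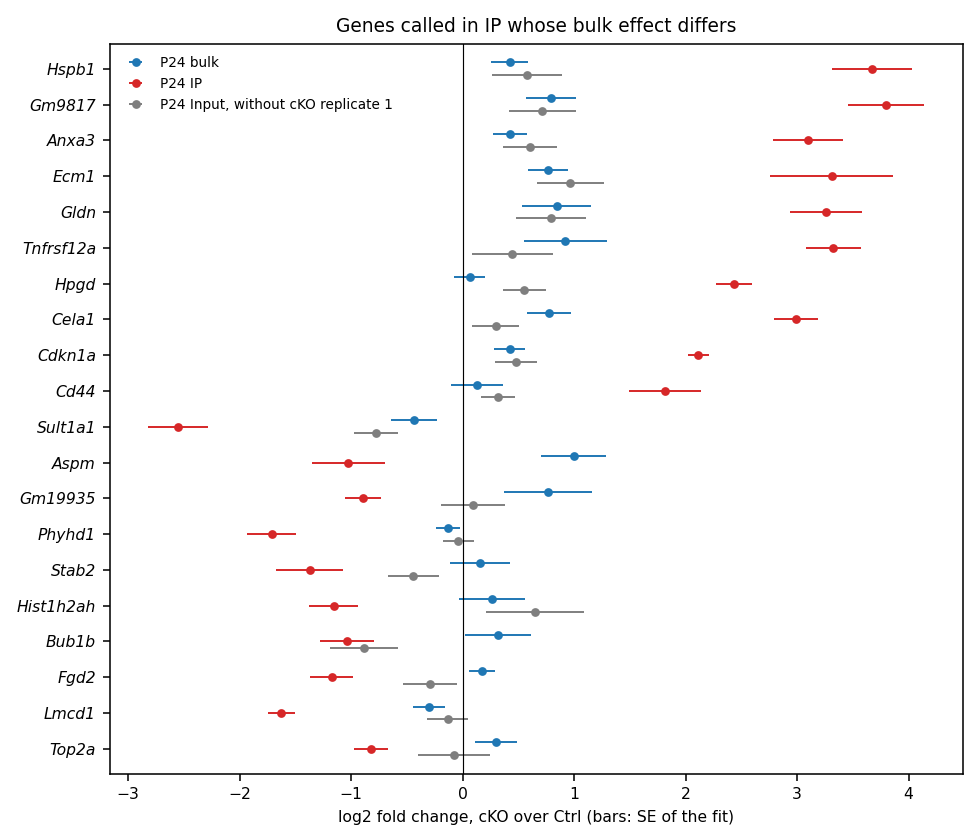
Log2 change (cKO against Ctrl, bars are SE) in P24 bulk, IP, and Input without cKO replicate 1 for genes called in IP whose bulk change differed. Hspb1 sits at 3.67 in IP and 0.42 in bulk, Cdkn1a at 2.11 and 0.42, and Sult1a1 at -2.55 and -0.44.

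Genes that could be called in IP but were too low to test in bulk numbered 315, of which 200 rose and 115 fell. Trib3, a pseudokinase induced by the integrated stress response, had 162 IP counts in cKO and 8 in Ctrl, with 27 to 71 in each cKO mouse and 2 to 4 in each Ctrl mouse, a ratio of 20.7 (95% exact interval 10.3 to 48.8). Bcl3, a cofactor of NF-kappa B, measured 1.77, 2.95 and 2.31 CPM in the cKO mice and 0.114, 0.344 and 0.198 CPM in the Ctrl mice in IP, and Lbhd2 4.66, 5.17 and 3.78 CPM in the cKO mice and 0.947, 0.612 and 0.475 CPM in the Ctrl mice. Gm14569 stood at 2.46, 2.40 and 3.18 CPM in the cKO mice and 9.24, 9.37 and 13 CPM in the Ctrl mice, a log2 change of -1.97 ± 0.19 (SE).

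Genes called higher in IP and not called in bulk, with or without a called difference, differed from other genes in kind as well. This pattern was looked at after the groups were known. Processed pseudogenes made up 32.4% of the IP-differing increases (382 of 1179), 2.10% of the IP-differing decreases (22 of 1047) and 10.9% of all genes tested in both (2245 of 20662), and reads of such copies can come from their parent genes. Protein-coding members of the increases had a median exonic length of 2992 bases, those of the decreases 5734, and all protein-coding genes tested in both 4453. The IP-undecided genes were similar. Processed pseudogenes made up 25.8% of their increases and 3.54% of their decreases, with median lengths of 2931 and 4914 bases for protein-coding members. The 181 increases shared with bulk held fewer, 13 processed pseudogenes (7.18%), and their protein-coding members had a median length of 3433 bases. Ribosomal protein genes, the parents of many processed pseudogenes, rose in IP for 77 of 81 with none falling (median 0.62), while 0 of 80 were called in bulk by edgeR or DESeq2, with 12 at an unadjusted p under 0.05 (median 0.09). Their summed level in IP was 17140 to 22242 CPM in cKO and 11295 to 13775 CPM in Ctrl, with no overlap, and in bulk 4628 to 5429 CPM and 4532 to 5167 CPM. Nuclear genes of the respiratory chain rose in IP for 56 of 80 (median 0.44) and were called for 0 of 78 in bulk by either tool, with 11 at an unadjusted p under 0.05 (median 0.04), and their summed IP level was 18166 to 18962 CPM in cKO and 13547 to 14262 CPM in Ctrl. The difference from bulk was called for 58 of 80 ribosomal protein genes and 49 of 78 respiratory genes, all with the higher change in IP. Input gave medians of 0.05 and 0.02, or 0.57 and 0.49 with cKO replicate 1. The part of transcript length in these increases was not tested.

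Arranged by how strongly Ctrl IP enriched a gene over Ctrl Input, the share of genes called in bulk was 20.8% in the most enriched bin and 0.818% in the least, although 26 of the bulk decreases lay in the least enriched. Among the 447 genes enriched over 8-fold (log2 ratio above 3), 15.9% rose and 4.92% fell in bulk, and 17.2% rose and 31.8% fell in IP. Among the 4157 genes whose IP level was under that of Input by more than 2-fold (log2 ratio below -1), 0.192% rose and 0.625% fell in bulk, and 2.43% rose and 11.1% fell in IP. Of the IP calls, the share also called in bulk was 32.0% in the most enriched genes and 1.60% in the least. All genes of the most enriched bin had median log2 changes of 0.09 in bulk, -0.18 in IP and 0.51 in Input. Ctrl IP libraries enter both the enrichment and the IP change, so the IP shares are a description.

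**Figure D5:**
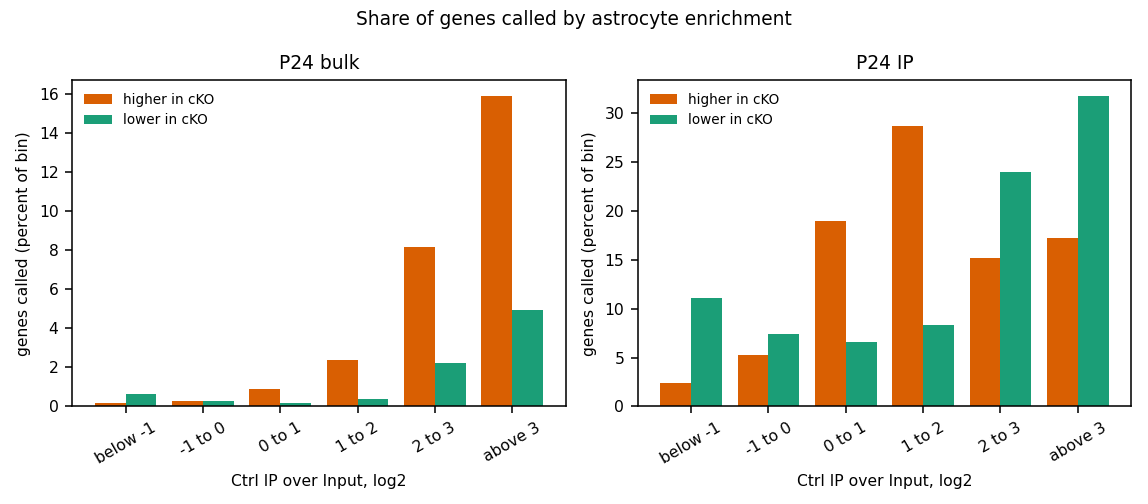
Percent of genes called higher or lower in cKO (vertical axis) within bins of the Ctrl IP to Input log2 ratio (horizontal axis), for P24 bulk and for IP. Bulk shares stay below 1% under a ratio of 0 and reach 15.9% up in the top bin, where the IP share of genes called down is 31.8%.

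Gene lists were counted in both assays. Of 20 astrocyte markers, 6 rose and 4 fell in bulk, while 1 rose and 6 fell in IP, with median log2 changes of 0.07 and -0.34. Neuron markers had 0 of 18 called in bulk by edgeR (5 at an unadjusted p under 0.05, 1 by DESeq2) and 3 of 18 lower in IP. Pan-reactive genes rose in bulk for 4 of 11 and in IP for 8 of 11, and the ischemia-type reactive genes for 2 of 9 and 6 of 11, with none falling. LPS-type reactive genes rose for 1 of 12 in bulk, and for 2 of 12 in IP with 2 falling. Galectins, annexins and S100 proteins rose for 7 of 18 in bulk, with S100b falling, and for 13 of 18 in IP (medians 0.72 and 1.11). Lysosome genes rose for 6 of 19 in bulk and 4 of 19 in IP. The serine and folate pathway, to which Aldh1l1 belongs, had 7 of 24 genes higher and 1 lower in bulk and 7 higher and 2 lower in IP. Integrated stress response genes rose for 3 of 25 in bulk and 8 of 26 in IP, and p53 targets for 2 of 13 and 6 of 14, each with 1 lower in IP. Potassium and glutamate handling genes had 2 higher and 2 lower of 16 in bulk, and 3 higher and 5 lower in IP. Proliferation genes had 0 of 9 called in bulk by edgeR and 0 by DESeq2 (1 at an unadjusted p under 0.05), and 2 of 14 lower in IP. Cholesterol synthesis genes had 0 of 22 called in bulk by edgeR (4 at an unadjusted p under 0.05, 1 by DESeq2) and 3 of 22 higher in IP. These shares read against 1.26% higher and 0.462% lower over all genes in bulk and 11.6% and 8.42% in IP.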

How the data were processed

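Each library came from the cortex of 1 mouse. Per the study's methods, bulk RNA was extracted from frozen tissue and reverse-transcribed with oligo-dT priming, whereas Input and IP RNA went through oligo-dT beads and the NEBNext Ultra kit, with fragmentation and PCR, so that library preparation differs between bulk and IP. The methods name RNA STAR in Galaxy and mm10; counter, strand and annotation are not given in the sources used here. The deposited tables hold raw gene counts made by the authors, with 0 columns that matched no sample. Symbols, kinds and coordinates came from GENCODE vM21 (53236 of 53341 shared identifiers found, 105 not), and promoters from RefSeq (12324 genes matched). Samples were grouped by the labels. Each comparison used edgeR 4.0.16 in R 4.3.3 (limma 3.58.1): TMM factors, filterByExpr (minimum count 10, total 15), quasi-likelihood test, and Benjamini-Hochberg adjustment over all genes tested, with adjusted p under 0.05 called. SE is the log2 change divided by the root of F. The IP minus bulk contrast was fitted over the 14 libraries on genes that passed both filters, so genes low in either assay have no difference. Each mouse was 1 replicate, replicates differed beyond counting noise, and the intervals printed for summed counts (exact, 95%) cover counting error only. Input and P17 bulk were fitted alike. The fits were tested on simulated data.

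Named genes were, among those with a mean of at least 2 CPM in the higher group and groups that did not overlap, protein-coding where annotated, the 8 up and 5 down shared genes with the largest smaller change, the 8 in each direction with the largest difference (bulk-called and IP-called), up to 4 testable in 1 assay only, and members of the gene lists. Cd244a, Gm26668, the gene families, kinds and motifs were chosen after their values were seen. The comparison, gene lists and tests were chosen with earlier results of these data known. Alternatives were RLE factors, DESeq2 1.42.0, edgeR's likelihood ratio test, other filters, a replicate block, TMM within assays, limma voom, combined separate fits, Input in place of bulk, and leaving out each library. Some genes, the deleted gene among them, are not reported here but stayed in fits and counts.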

Additional observations from a re-analysis of the deposited data

Results flagged for a closer look

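Of 72 genes looked at, 47 had an IP change that differed from the bulk change by the edgeR quasi-likelihood test of the difference (IP minus bulk, log2). Among genes called higher in bulk, the difference was Trim56 (-1.17), C4b (-1.20), Pdlim4 (-1.03), Aldh1l1 (-1.01), Ppp1r3c (-0.98), Arhgef26 (-0.96), Sox9 (-0.91), Kcnj16 (-0.82), Slc14a1 (-0.74), Hepacam (-0.64) and Sox2 (-0.60). For Fam187a the fitted difference of -5.06 depends on the prior count, since the Ctrl bulk libraries held 1 to 3 counts. Gfap, called in both, had -1.75. Genes called lower in bulk had Vapa (0.95), Rab31 (0.75), Alk (0.67), Kcnd2 (0.58), Thsd7a (0.54), Slc8a3 (0.53), S100b (0.51) and Cbarp (0.51). Genes called higher in IP had Hspb1 (3.24), Gm9817 (3.00), Anxa3 (2.66), Ecm1 (2.53), Gldn (2.40), Tnfrsf12a (2.39), Hpgd (2.36), Cela1 (2.20), Cd44 (1.69) and Cdkn1a (1.68). Genes called lower in IP had Sult1a1 (-2.12), Aspm (-2.03), Gm19935 (-1.67), Phyhd1 (-1.59), Stab2 (-1.53), Hist1h2ah (-1.43), Bub1b (-1.37), Fgd2 (-1.36), Lmcd1 (-1.33) and Top2a (-1.13). Shared increases with a larger rise in IP were Col5a3 (3.08), Cav1 (1.89), Tagln2 (1.49) and Ifitm3 (1.30), and shared decreases with a larger fall in IP were Myoc (-0.96) and Myocos (-1.14). Many of these genes were named for the size of this difference, so their number is no result.

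In 144 bulk groups of 4 mice, 9 single mice lay apart from the other 3 by Dixon's ratio at its 95% level, and chance alone gives about 1 in 20 groups. Bulk cKO replicate 1 was the mouse in 3 of the 9, with 5.80 CPM of Anxa3, 17.1 CPM of Kcnj16 and 5.19 CPM of Tagln2, each the lowest of its group. Bulk cKO replicate 3 had 2.02 CPM of Gm19935. Among Ctrl mice, replicate 1 had 32.1 CPM of Phyhd1, replicate 2 had 5.59 CPM of Pdlim4, 26.7 CPM of Slc7a10 and 4.93 CPM of Tagln2, and replicate 3 had 352 CPM of Cbarp.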

How the results depend on the processing

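IP, difference and shared counts stayed within 1.5 times their value under RLE factors, DESeq2, the likelihood ratio test and the stricter filter. Bulk calls numbered 598 by DESeq2 and 619 both by the likelihood ratio test and without a filter, against 388, and these 3 settings gave 7, 9 and 7 genes in opposite directions. Bulk-differing genes came to 64 by DESeq2 and 69 by the likelihood ratio test, and bulk-undecided genes to 184, 176 and 225 under DESeq2, the likelihood ratio test and no filter, the last of which left 3300 IP-undecided genes. The share of called differences that were higher in IP was 49.8%, 58.8% under RLE factors and 61.3% without a filter. Differences numbered 2684 with TMM within assays, 2224 by limma voom with quality weights per assay and 3600 by combined separate fits. Bulk-differing genes numbered 39, 33 and 52 in that order. Under voom, 10 of the 47 flagged differences were no longer called.

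Set against Input of the same mice, the IP difference was called for 15 genes, for 6 with the mouse as a block and for 540 without Input cKO replicate 1 (the last pair of settings chosen after seeing the data), against 2633 for bulk. Over the 2619 of these with a value in each setting, the median size of the difference was 0.55 for bulk and 0.35, 0.36 and 0.52 for the Input settings, and the median SE over all genes was 0.168 for bulk and 0.278, 0.271 and 0.222; the cause of the lower counts was not tested. Fam187a reversed to 0.66, 0.69 and 0.72 in these 3 settings and S100b to -0.67, -0.56 and -0.18, and Vapa reversed to -0.23 and -0.20 in the first pair.

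Leaving out 1 library gave 216 to 952 bulk calls (952 without bulk cKO replicate 1), 2638 to 4811 IP calls (2638 without IP cKO replicate 2), 1379 to 3472 differences, 140 to 468 shared genes, 1 to 8 opposite, 22 to 108 bulk-differing, 43 to 351 bulk-undecided, 1050 to 2829 IP-differing and 1018 to 2659 IP-undecided genes. Without IP cKO replicate 2 the IP call was lost for Aspm (-0.72, adjusted p = 0.15), Bub1b (-1.01, 0.0525), Rab31 (0.34, 0.0769), Slc7a10 (-0.87, 0.134) and Trim56 (-0.55, 0.0993), and the edgeR difference for Bub1b (-1.32, 0.0797), C4b (-1.13, 0.056), Cd44 (1.16, 0.074), Ifitm3 (1.09, 0.0707), Kcnj16 (-0.84, 0.0627), Slc14a1 (-0.72, 0.0669), Sox2 (-0.48, 0.137), Stab2 (-1.40, 0.0814) and Thsd7a (0.61, 0.0519), with no change of direction; leaving out any other single library ended 2 to 21 calls of named genes. With the replicate number as a block, bulk calls numbered 410, IP calls 6740 and differences 3759, with 7 opposite, 61 bulk-differing and 56 bulk-undecided genes. Same-numbered bulk mice had deviations with r of 0.2461, 0.0539, 0.1241 and 0.1218, and IP mice 0.1799, 0.0995 and 0.2242. In IP each cKO library correlated best with its own number, and in bulk replicates 1 and 3 did. The study names sex-matched littermates but does not tie them to replicate numbers. A pairing by number is thus a hint from the data, neither stated by the design nor excluded.

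With 4 and 3 mice a group, changes near the standard errors were not detectable, and a bulk gene without an IP call is not shown to be unchanged in astrocytes. Bulk RNA includes astrocytes, so a call in bulk alone does not place a change outside them. IP values are shares of the RNA pulled down and carry no information on cell number.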

Other observations

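Markers of other cell types were counted alike, against 1.26% of all genes higher and 0.462% lower in bulk and 11.6% and 8.42% in IP. Of 16 oligodendrocyte markers, 0 were called in bulk by edgeR (1 at an unadjusted p under 0.05, 1 by DESeq2) and 0 in IP (1 at an unadjusted p under 0.05, 0 by DESeq2). Oligodendrocyte precursor markers had 0 of 10 called in bulk by edgeR and 0 by DESeq2 (2 at an unadjusted p under 0.05), and 3 of 10 higher in IP. Mural cell markers had 0 of 10 called in bulk by either tool (2 at an unadjusted p under 0.05) and 2 of 7 higher in IP. Endothelial markers had 0 of 12 called in bulk by either tool, 0 of them at an unadjusted p under 0.05, and 0 of 9 in IP by either tool (1 at an unadjusted p under 0.05). Microglia markers had 0 of 18 called in bulk by edgeR (8 at an unadjusted p under 0.05, 2 by DESeq2) and 3 of 17 higher in IP, and activated microglia genes 1 of 10 higher in bulk and 1 of 6 higher in IP. Fibroblast markers had 1 of 16 higher in bulk, and 1 higher and 1 lower of 12 in IP. Choroid plexus markers had 0 of 6 called in bulk by either tool, 0 of them at an unadjusted p under 0.05, and 2 of 5 lower in IP, and their summed bulk level in cKO ran from 6.81 to 314 CPM. Neuropeptide genes had 0 of 18 called in bulk by either tool (4 at an unadjusted p under 0.05) and 1 of 18 lower in IP, and activity-regulated genes of neurons 1 of 22 lower in bulk and 2 of 22 lower in IP. Summed IP levels did not overlap for endothelial markers (9.54 to 12.3 CPM in cKO and 8.59 to 9.48 CPM in Ctrl), mural cell markers (44.4 to 51.9 and 30.5 to 43.5 CPM) and activated microglia genes (226 to 374 and 112 to 159 CPM), and the part of these cells in the IP results was not tested. The activated microglia sum was only 33.7 to 40.8 CPM in Ctrl Input. Of 7 of these genes with a value, 2 were called higher in Ctrl IP than in Ctrl Input and 4 lower. For the microglia markers, 17 of 18 were lower. The activated microglia sum in IP is therefore not a measure of microglia. Extracellular matrix genes had 3 of 30 higher in bulk, and 4 higher and 1 lower of 25 in IP. A further 318 genes were called in neither assay alone while their difference was called, 90 of them positive and 228 negative in IP.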
